A study of Homo sapiens with 4 samples.

Results

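DNA replication and S phase genes were compared between MDA231-BR, a brain metastatic derivative of a human breast cancer line, and MDA231-P, the line MDA-MB-231 itself. The members are 47 genes listed by symbol, all of which have a row in the table of 15346 rows. They were grouped by the step at which their products act: 5 in origin licensing, 12 in the replicative helicase, 6 in the sliding clamp and its loader, 9 in polymerases and primase, 5 in single-strand binding and flap processing, 5 in nucleotide supply and 5 in chromatin assembly and S phase control. All 47 passed the filter on low values. The lowest mean over the 4 libraries was 448 normalized reads, for CDT1, and no member had fewer than 307 reads in any library.

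The MDA231-BR group has 2 RNA-seq libraries, labelled as the line MDAMB231Br and as a brain metastasis of breast cancer. The MDA231-P group has 2 libraries of the line MDAMB231, a widely used triple-negative breast cancer line, labelled as breast cancer. Both lines grew in culture in DMEM with serum, with no treatment named, and each label gives a single line, so a line and any clone within it cannot be told apart. Whether the 2 libraries of each line are separate cultures is not given, so p-values reflect the spread between libraries alone, and that spread may be technical. In bulk RNA, fewer cells in S phase and less RNA of a gene per cell cannot be told apart.

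Chromosome replication begins when the origin recognition complex, CDC6 and CDT1 load rings of MCM2 to MCM7 onto DNA in G1. In S phase the rings become active helicases by binding CDC45 and the GINS complex. Polymerase alpha and primase then start each strand, the RFC loader places the PCNA clamp, polymerases delta and epsilon extend, and CAF-1 puts histones onto the new DNA. Many of these genes are transcribed at the G1 to S boundary under E2F factors, so their messages are widely read as a sign of proliferation.

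The libraries held 28107820 and 25835225 reads in named genes in MDA231-BR libraries A and B, against 30771290 and 27554570 in MDA231-P libraries A and B. The letters follow the column order of the deposited table. All 8 genes listed as high in MDA-MB-231, such as VIM and AXL, were abundant in all libraries, with 2 called higher and 1 lower by limma-trend. The luminal marker ESR1 had at most 26.5 normalized reads. Of 13 brain cell markers, 2 had a row. With limma-trend and edgeR 0 of these were called, with DESeq2 1 was called higher, and both were higher at an unadjusted p below 0.05; MBP had 3751 and 3999 normalized reads in MDA231-BR libraries A and B, against 2328 and 2550.2 in MDA231-P libraries A and B. The other markers were not analysed here. MDA231-BR library B stood apart in other genes. The 17 tested interferon-stimulated genes had a median log2 difference from the MDA231-P mean of 0.03 in MDA231-BR library A and 2.82 in MDA231-BR library B. Of these 17 genes, 3 were called higher by limma-trend, 6 by edgeR and 4 by DESeq2. The shares of all genes called higher were 8.61%, 8.96% and 11.3%. Reads in 15 mitochondrial pseudogenes made up 0.0483% and 0.17% of MDA231-BR libraries A and B, against 0.0431% and 0.0425% of MDA231-P libraries A and B. Their part in the results was not tested.

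A minority of the replication genes passed the test, all of them lower in MDA231-BR. Of 47 members tested, 8 (17.0%) were called lower, 0 were called higher and 39 were not called (limma-trend, adjusted p below 0.05 over all genes). Over all 14424 genes tested, 5.8% were called lower and 8.61% higher. The 8 were GINS2, CHAF1B, RFC2, PRIM1, POLA1, GINS1, MCM7 and TYMS, with log2 fold changes between -1.63 and -0.83. At an unadjusted p below 0.05, 20 members were lower and 1 was higher, against 14.7% and 17.1% of all genes. On recovered reads, edgeR called 9 members lower and 0 higher, against 6.48% and 8.96% of all genes, and DESeq2 called 11 lower and 0 higher, against 8.92% and 11.3%.

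More members were fitted below 0 than passed the test. The fitted change was below 0 for 40 of the 47 members (85.1%), against 49.1% of all genes tested. Both MDA231-BR libraries were below both MDA231-P libraries for 31 members (66.0%), against a background of 29.7%, and above both for 3, namely GINS4, RFC1 and RRM1, against a background of 31.7%. The median log2 fold change of the members was -0.47, against 0.01 for all genes tested. It was -0.35 in MDA231-BR library A and -0.55 in library B, each taken against the MDA231-P mean.

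The calls changed when a library was left out, and the spread used then came from the line with 2 libraries. Over all genes the median absolute log2 difference between libraries was 0.377 in MDA231-BR and 0.260 in MDA231-P. Its part in the change of calls was not tested. Without MDA231-P library A, 0 members were called in either direction, against 0.77% of all genes lower and 2.15% higher. Without MDA231-P library B, 0 were called, against 0.513% lower and 2.46% higher. The median log2 fold change of the members was -0.36 without library A and -0.51 without library B. The log2 fold changes of the 8 ran -1.82 to -0.66 without library A and -1.48 to -0.81 without library B. Their sign was fixed in advance, since both MDA231-BR libraries of each gene lay below both MDA231-P libraries. Without MDA231-BR library A, 18 members were called lower and 0 higher, against 16.7% and 19.8% of all genes. Without MDA231-BR library B, 7 were called lower and GINS4 higher, against 10.2% and 11.6% of all genes. GINS1 and TYMS were then not called (adjusted p = 0.0676 and 0.0628), and UHRF1 was.

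**Figure D1:**
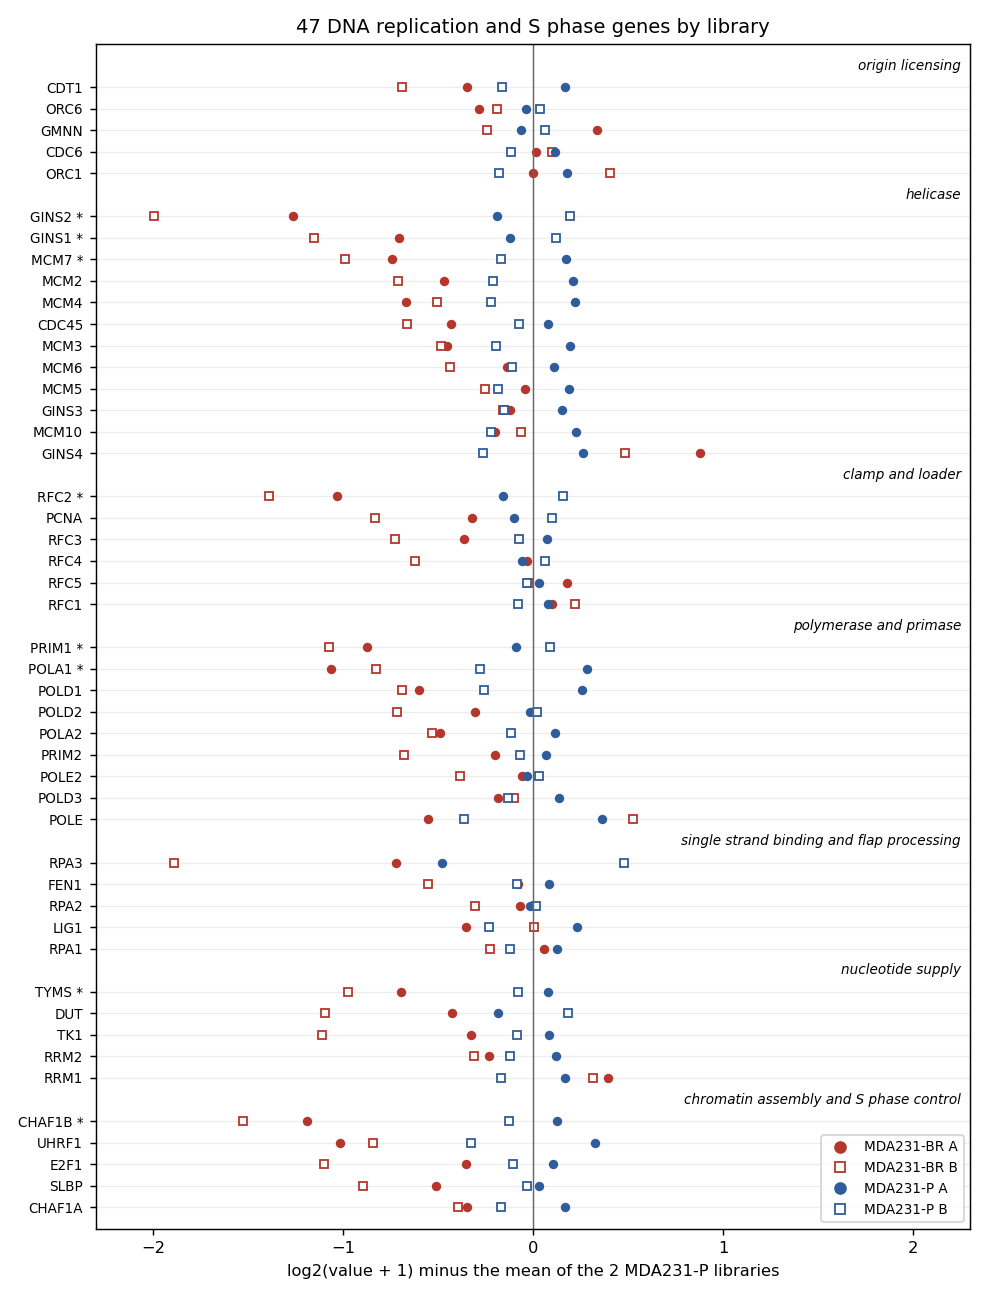
Each of the 47 genes by library, as log2(value + 1) minus the mean of both MDA231-P libraries, grouped by step and sorted by fold change. Red symbols are MDA231-BR and blue symbols MDA231-P (filled, library A; open, library B), and a star marks the 8 genes called lower; most red symbols lie left of the blue ones, with GINS4 and RRM1 on the right.

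**Figure D2:**
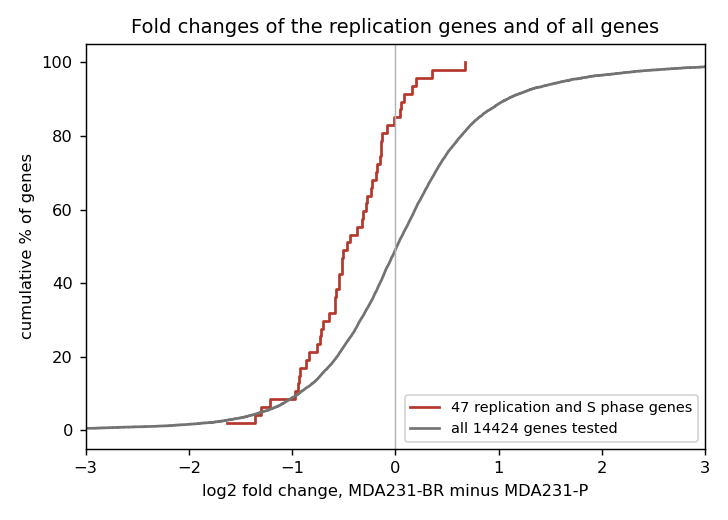
Cumulative share of genes by log2 fold change, MDA231-BR minus MDA231-P, for the 47 replication and S phase genes (red) and all 14424 genes tested (grey). The red curve has reached 85.1% at 0, where the grey curve is at 49.1%.

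No step was tested as a set, and the genes of a step are not replicates. Origin licensing genes showed no common direction. Of 5 members, 0 were called by limma-trend, edgeR or DESeq2, 0 had an unadjusted p below 0.05, 2 were fitted below 0 and 3 above, and the median log2 fold change was 0.05. CDC6, the ATPase that helps to load the MCM ring and the most abundant of the 5 by reads, had 3992 and 4222 normalized reads in MDA231-BR libraries A and B, against 4278 and 3639.5 in MDA231-P libraries A and B. The groups overlapped. CDT1, the loader that brings MCM rings to origins, had 412 and 325 normalized reads in MDA231-BR, against 589 and 468 in MDA231-P, and the lines did not overlap (log2 fold change -0.52 ± 0.275 SE, adjusted p = 0.234). GMNN, which encodes geminin, the inhibitor of CDT1, had 3591 and 2411 normalized reads in MDA231-BR, against 2724 and 2977 in MDA231-P, with the MDA231-BR libraries on either side of MDA231-P. ORC1 and ORC6, subunits of the origin recognition complex, had log2 fold changes of 0.20 and -0.24, and neither was called.

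Most helicase genes were fitted lower in MDA231-BR. Of 12 members, 3 were called lower and 0 higher, against 5.8% and 8.61% of all genes. The fitted change was below 0 for 11, against 49.1% of all genes, with a median log2 fold change of -0.51. GINS2, a subunit of the GINS complex that joins CDC45 to the MCM ring, fell most of all 47 members. It had 638 and 384 normalized reads in MDA231-BR libraries A and B, against 1340.4 and 1749.9 in MDA231-P libraries A and B. The groups were apart, with MDA231-BR library B the lowest (log2 fold change -1.63 ± 0.308 SE, adjusted p = 0.013). Its partner GINS1 had 1703 and 1251 normalized reads in MDA231-BR, against 2558 and 3023 in MDA231-P, and the groups were again apart (log2 fold change -0.93 ± 0.249 SE, adjusted p = 0.0432). GINS3 had 473 and 459.9 normalized reads in MDA231-BR, against 572 and 463 in MDA231-P, with overlapping groups and a log2 fold change of -0.14. GINS4 ran the other way, with 1458 and 1108 normalized reads in MDA231-BR, against 954 and 661 in MDA231-P. Both MDA231-BR libraries exceeded both MDA231-P libraries, but the gene did not pass with all libraries (log2 fold change 0.68 ± 0.279 SE, adjusted p = 0.139).

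All 6 genes of the MCM ring were fitted below 0, against 49.1% of all genes. MCM7 was the only one of them called, with 4539 and 3821 normalized reads in MDA231-BR libraries A and B, against 8548 and 6751 in MDA231-P libraries A and B. The groups did not overlap (log2 fold change -0.87 ± 0.234 SE, adjusted p = 0.0441). MCM4 had 4194 and 4690.1 normalized reads in MDA231-BR, against 7762 and 5711 in MDA231-P and MCM2 had 1524 and 1286 normalized reads in MDA231-BR, against 2438 and 1822 in MDA231-P, with log2 fold changes of -0.59 and -0.59 and adjusted p = 0.137 and 0.147. MCM3, the most abundant helicase gene by reads, had 7104 and 6952 normalized reads in MDA231-BR, against 11149 and 8513 in MDA231-P (log2 fold change -0.47 ± 0.23 SE, adjusted p = 0.201). These 3 had groups apart without passing the test. MCM6 (-0.29) was apart as well, whereas the groups of MCM5 (-0.15) overlapped, all as log2 fold changes. The summed level of the 6 MCM genes was 22939 and 21361 normalized reads in MDA231-BR libraries A and B, against 36511 and 28342 in MDA231-P libraries A and B. CDC45, which completes the active helicase, had 869 and 739.6 normalized reads in MDA231-BR, against 1235 and 1112 in MDA231-P (log2 fold change -0.55 ± 0.237 SE, adjusted p = 0.156). MCM10, needed to activate the helicase, had a log2 fold change of -0.13 with overlapping groups.

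**Figure D3:**
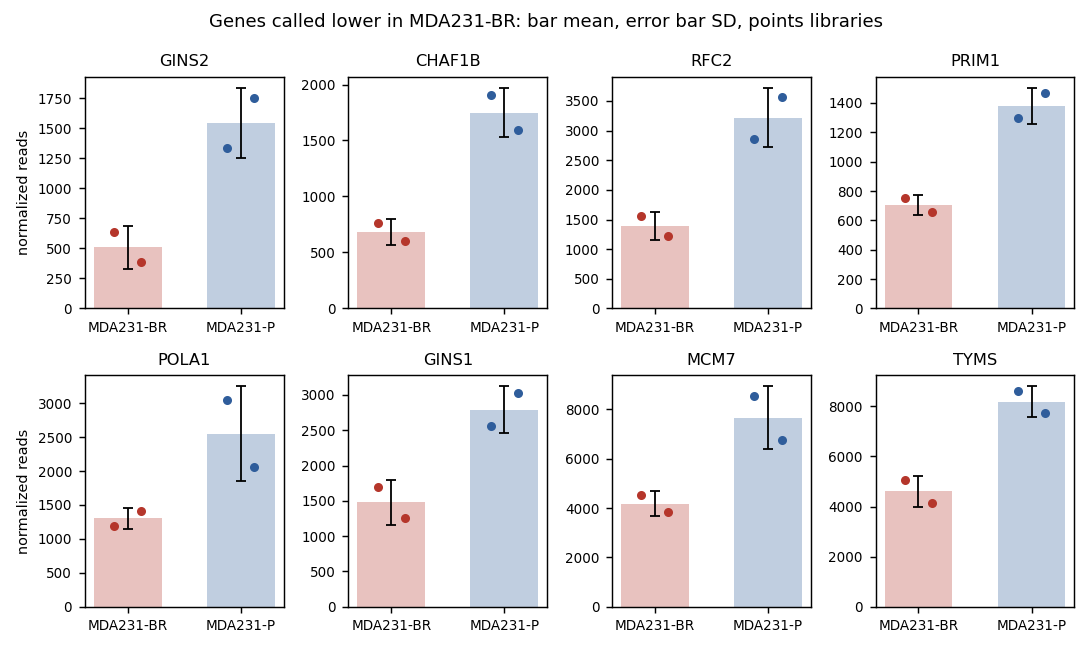
Normalized reads of the 8 genes called lower, with MDA231-BR to the left of MDA231-P in each panel, bars as means, error bars as SD and points as the 2 libraries of a line. In every panel both MDA231-BR points lie below both MDA231-P points, as for GINS2 at 638 and 384 against 1340.4 and 1749.9.

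At the clamp, 1 of 6 genes was called lower and 0 higher, against 5.8% and 8.61% of all genes. The median log2 fold change was -0.44. RFC2, a small subunit of the clamp loader, had 1563 and 1221 normalized reads in MDA231-BR libraries A and B, against 2862 and 3569 in MDA231-P libraries A and B. MDA231-BR was lower in both libraries (log2 fold change -1.21 ± 0.245 SE, adjusted p = 0.0172). PCNA, the sliding clamp that tethers the polymerases, had 7023 and 4929.6 normalized reads in MDA231-BR, against 8185 and 9414 in MDA231-P. The groups were apart, but MDA231-BR library A lay closer to MDA231-P than library B did, and the gene did not pass (log2 fold change -0.58 ± 0.249 SE, adjusted p = 0.155). RFC3 (-0.55) also had groups apart, RFC4 (-0.33) had overlapping groups, and neither was called, as log2 fold changes. The large subunit gene RFC1 had 3612 and 3929 normalized reads in MDA231-BR, against 3559 and 3198 in MDA231-P, a log2 fold change of 0.16 that was not called, and RFC5 had one of 0.08.

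All 9 polymerase and primase genes were fitted below 0, against 49.1% of all genes, with a median log2 fold change of -0.51. Of these, 2 were called lower, against 5.8% of all genes. Both called genes belong to the polymerase alpha and primase complex, which makes the RNA-DNA primers. PRIM1, the catalytic primase subunit, had 752 and 654 normalized reads in MDA231-BR libraries A and B, against 1295 and 1466 in MDA231-P libraries A and B (log2 fold change -0.97 ± 0.236 SE, adjusted p = 0.032). POLA1, the catalytic polymerase alpha subunit, had 1197 and 1411 normalized reads in MDA231-BR, against 3042 and 2059 in MDA231-P. The MDA231-P libraries of POLA1 were far apart, and it lay close to the threshold (log2 fold change -0.94 ± 0.264 SE, adjusted p = 0.0497); it was not called at a pseudocount of 0.5 (adjusted p = 0.0503) or without a filter on low values (adjusted p = 0.0565). The partner subunits POLA2 (-0.51) and PRIM2 (-0.44) were not called, although their groups did not overlap, as log2 fold changes. Of polymerase delta, POLD2, the accessory subunit and the most abundant gene of this step by reads, had 2677 and 2015 normalized reads in MDA231-BR, against 3271 and 3359 in MDA231-P (log2 fold change -0.51 ± 0.235 SE, adjusted p = 0.176). The catalytic subunit POLD1 (-0.65) was apart between the lines and POLD3 (-0.14) was not, and neither was called, as log2 fold changes. POLE, the catalytic subunit of polymerase epsilon, had 790.3 and 1670.0 normalized reads in MDA231-BR, against 1492 and 903 in MDA231-P. Its libraries differed more within each line than the line means did, and its fitted change was -0.01 on the log2 scale. POLE2 had a log2 fold change of -0.22.

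Single-strand binding and flap processing genes had 0 called members with limma-trend or edgeR. With DESeq2, 1 was called lower, against 8.92% of all genes. At an unadjusted p below 0.05 in limma-trend, 1 of 5 was lower, against 14.7% of all genes. All 5 were fitted below 0, against 49.1% of all genes, with a median log2 fold change of -0.19. RPA1, the large subunit of the single-strand binding protein RPA and the most abundant of the 5 by reads, had 6213 and 5097 normalized reads in MDA231-BR libraries A and B, against 6496 and 5478 in MDA231-P libraries A and B. The groups overlapped. RPA3, its smallest subunit, had 1799 and 801 normalized reads in MDA231-BR, against 2129 and 4135 in MDA231-P. The spread within each line was wide, and RPA3 did not pass (log2 fold change -1.30 ± 0.432 SE, adjusted p = 0.0809), but DESeq2 on recovered reads called it (adjusted p = 0.0106). RPA2 (-0.19), the flap nuclease gene FEN1 (-0.32) and LIG1 (-0.18), the ligase that joins lagging strand fragments, were not called, as log2 fold changes.

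Of 5 nucleotide supply genes, 1 was called lower and 0 higher, against 5.8% and 8.61% of all genes. The fitted change was below 0 for 4, against 49.1% of all genes, and the median log2 fold change was -0.72. TYMS, the enzyme that makes thymidylate from deoxyuridylate, was the called member and had 5043 and 4158 normalized reads in MDA231-BR libraries A and B, against 8609 and 7735 in MDA231-P libraries A and B. The groups were well apart (log2 fold change -0.83 ± 0.223 SE, adjusted p = 0.0432). DUT, which supplies the substrate of TYMS, had 3149 and 1984 normalized reads in MDA231-BR, against 3723 and 4818 in MDA231-P. TK1, the salvage kinase for thymidine, had 2079 and 1208 normalized reads in MDA231-BR, against 2764 and 2456 in MDA231-P. Both had groups apart, with MDA231-BR library B the lowest, and neither passed (adjusted p = 0.11 for DUT and 0.137 for TK1). RRM2, the small subunit of ribonucleotide reductase and the most abundant of all 47 members by reads, had 10612 and 10055 normalized reads in MDA231-BR, against 13563 and 11496 in MDA231-P (log2 fold change -0.27 ± 0.219 SE, adjusted p = 0.423). RRM1, its large subunit, had 11008 and 10439 normalized reads in MDA231-BR, against 9426 and 7473 in MDA231-P, and here both MDA231-BR libraries were above both MDA231-P libraries (log2 fold change 0.35 ± 0.226 SE, adjusted p = 0.319).

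In chromatin assembly and S phase control, both MDA231-BR libraries were below both MDA231-P libraries for all 5 members, against 29.7% of all genes. Of the 5, 1 was called lower, against 5.8% of all genes. The median log2 fold change was -0.73. CHAF1B, the middle subunit of the histone chaperone CAF-1, had 764 and 604 normalized reads in MDA231-BR libraries A and B, against 1903 and 1595 in MDA231-P libraries A and B. The groups were far apart (log2 fold change -1.36 ± 0.248 SE, adjusted p = 0.0113). Its partner CHAF1A had 1241 and 1202 normalized reads in MDA231-BR, against 1775 and 1405 in MDA231-P and was not called (log2 fold change -0.37 ± 0.236 SE, adjusted p = 0.317). UHRF1, which guides maintenance of DNA methylation at new strands, had 809.5 and 912 normalized reads in MDA231-BR, against 2054 and 1304 in MDA231-P. It missed the threshold (log2 fold change -0.93 ± 0.279 SE, adjusted p = 0.0618), but edgeR's quasi-likelihood test (adjusted p = 0.0452) and DESeq2 (adjusted p = 0.0119) called it. SLBP, the histone message binding protein and the most abundant of the 5 by reads, had 2779 and 2132 normalized reads in MDA231-BR, against 4052 and 3877 in MDA231-P (log2 fold change -0.70 ± 0.232 SE, adjusted p = 0.0801). E2F1, an activator of S phase genes, had 1398 and 832 normalized reads in MDA231-BR, against 1923 and 1661 in MDA231-P (log2 fold change -0.73 ± 0.293 SE, adjusted p = 0.133). In E2F1 most of the difference came from MDA231-BR library B.

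Within complexes, partner genes took different proportions in the lines. The 9 pairs plotted were chosen after their values were seen, so they are a description without a test, and 2 libraries against 2 cannot give a two-sided exact permutation p below 0.333. As a ratio of reads per kb of exon, GINS4 to GINS2 was 1.12 and 1.41 in MDA231-BR, against 0.348 and 0.185 in MDA231-P. RRM1 to RRM2 was 1.19 and 1.19 in MDA231-BR, against 0.798 and 0.747 in MDA231-P. With these exon lengths, RRM1 was above RRM2 per kb in MDA231-BR and below it in MDA231-P. That order depends on the lengths used, and RRM2 shares 1077 exon bases with AC007240.1 on the same strand. The ratio of CHAF1B to CHAF1A was 0.459 and 0.375 in MDA231-BR, against 0.799 and 0.846 in MDA231-P. For MCM7 to MCM5 it was 3.46 and 3.36 in MDA231-BR, against 5.56 and 5.69 in MDA231-P. These ratios are taken within a library, so the scaling between libraries does not enter them.

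**Figure D4:**
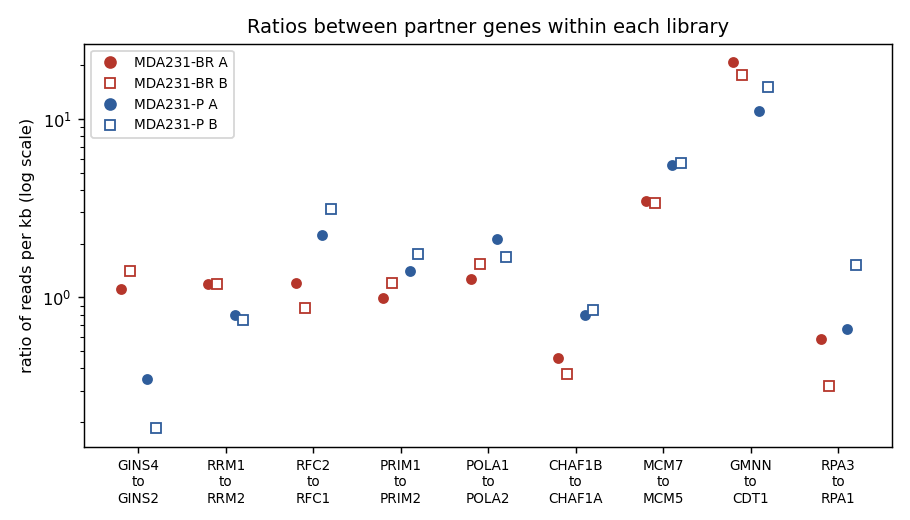
Ratio of reads per kb of exon between 9 pairs of partner genes, on a log axis, by library (red, MDA231-BR; blue, MDA231-P; filled, library A; open, library B). The groups are apart in each pair, since the pairs were picked by their values, and GINS4 to GINS2 shows the widest gap.

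Promoter sequence was set beside the calls because E2F factors act at many of these genes. RefSeq promoter windows (GRCh38.p14, 250 bases before to 50 after each start; the deposited values rest on GRCh37) matched 41 members by symbol. GINS4, MCM4, MCM5, POLD3, RPA2 and RPA3 are named only. The windows of GINS2, the gene that fell most, of MCM7 and of CHAF1B are shown with the E2F motif in capitals, and CHAF1B holds none.
GINS2, chr16:85688905-85689204, minus strand: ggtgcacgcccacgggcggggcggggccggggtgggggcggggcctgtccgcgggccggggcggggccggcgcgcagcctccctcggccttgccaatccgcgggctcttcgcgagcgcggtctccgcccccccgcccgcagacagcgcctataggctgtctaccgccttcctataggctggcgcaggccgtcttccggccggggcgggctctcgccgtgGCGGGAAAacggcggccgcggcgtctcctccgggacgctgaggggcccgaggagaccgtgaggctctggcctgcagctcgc
MCM7, chr7:100101348-100101647, minus strand: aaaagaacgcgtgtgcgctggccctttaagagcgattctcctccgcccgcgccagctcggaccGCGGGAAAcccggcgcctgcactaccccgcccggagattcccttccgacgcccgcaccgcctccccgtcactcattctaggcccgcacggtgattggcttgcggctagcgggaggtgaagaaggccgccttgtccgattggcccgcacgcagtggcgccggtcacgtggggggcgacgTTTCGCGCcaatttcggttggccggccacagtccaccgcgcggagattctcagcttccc
CHAF1B, chr21:36385142-36385441, plus strand: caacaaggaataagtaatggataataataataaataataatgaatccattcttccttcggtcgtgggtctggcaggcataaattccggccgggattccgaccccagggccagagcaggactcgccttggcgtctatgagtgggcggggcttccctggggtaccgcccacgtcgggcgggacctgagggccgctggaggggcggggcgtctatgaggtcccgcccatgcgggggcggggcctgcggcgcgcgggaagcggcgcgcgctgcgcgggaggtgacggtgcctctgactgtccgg

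The E2F motif was searched on both strands as TTTCCCGC, TTTCGCGC, TTTGCCGC and TTTGGCGC, with overlapping matches counted. It was present in 19 of 41 members' windows (46.3%), against 549 of 10072 windows of tested genes (5.45%) and 3.33% of all 27305 windows. CCAAT, the box bound by NF-Y, was in 23 of 41 (56.1%) against 36.9% of windows of tested genes, GGGCGG was in 73.2% against 70.7%, and TTTGAA or TTCGAA, elements of late cell cycle promoters, in 4.88% against 11.1%. The site nearest the start in the other called genes with a match, and in E2F1, is given with 8 bases on either side on the strand that shows the motif.
GINS1, chr20:25407670-25407693, minus strand: ctccgcgcTTTGGCGCcgaacaaa
POLA1, chrX:24693773-24693796, minus strand: gacgcgcgTTTGGCGCcctgtgat
TYMS, chr18:657606-657629, minus strand: gcgcgcctTTTCCCGCggccgtcc
E2F1, chr20:33686390-33686413, minus strand: aaaaaggaTTTGGCGCgtaaaagt

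Of the 19 members with an E2F match, 5 were called lower and the median log2 fold change was -0.55. Of the 22 without, 3 (CHAF1B, RFC2 and PRIM1) were called lower and the median was -0.35. Genes with little change also held the motif, such as CDC6 (0.06) and POLE (-0.01), as log2 fold changes. A match is a description of the letters and not a bound site. Only the listed strings were searched, so a window with a near form, such as TTTGGCGG in CDC45, counts as without a match.

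**Figure D5:**
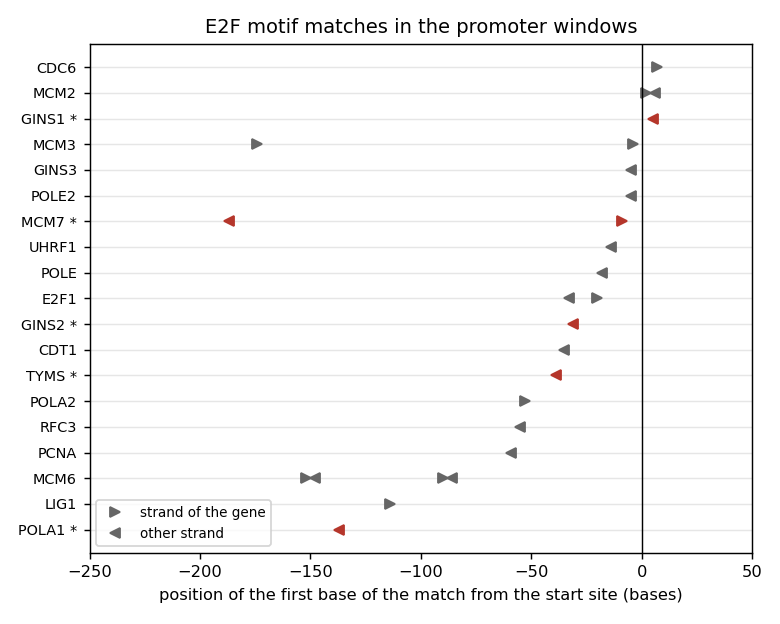
Position of the first base of each E2F motif match relative to the start site (0) in the windows of the 19 members that hold one, with arrowheads for the strand, and red with a star for the genes called lower. Most matches lie within 59 bases of the start; those of MCM6, LIG1 and POLA1, and a second match in MCM3 and in MCM7, lie farther upstream.

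Genes of neighbouring pathways, listed by symbol, are read against the 5.8% of all genes called lower and 8.61% called higher by limma-trend. Of 18 tested other origin and helicase factors, 2 (11.1%) were called lower and 0 higher, with a median log2 fold change of -0.25. DBF4, which activates the kinase CDC7 at origins, had 1247 and 1283 normalized reads in MDA231-BR libraries A and B, against 2728 and 3155 in MDA231-P libraries A and B (log2 fold change -1.21 ± 0.222 SE, adjusted p = 0.0114). DONSON, a factor needed to build the helicase at origins, had a log2 fold change of -0.94 (adjusted p = 0.0308). Of 17 other fork, clamp and polymerase factors, 2 (11.8%) were lower and 0 higher, with a median of -0.12. These were DNA2 (-1.19), a nuclease and helicase for long flaps, and RNASEH2B (-1.04), a subunit of the enzyme that removes ribonucleotides, as log2 fold changes. Of 12 other nucleotide supply genes, 2 (16.7%) were lower and 0 higher, with a median of -0.37. SHMT1, which charges folate with the carbon unit that TYMS uses, was 1 of these 2, with a log2 fold change of -0.98 (adjusted p = 0.0396). Of 10 other chromatin assembly genes, 2 (20%) were higher and 0 lower, with a median of 0.24. ATRX (1.08) and its partner DAXX (0.80), which deposit histone H3.3 outside replication, rose on the log2 scale, DAXX close to the threshold (adjusted p = 0.0499) and not with edgeR's quasi-likelihood test (adjusted p = 0.056).

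Regulators of the G1 to S step held calls in both directions, at shares below those of all genes (8.61% higher and 5.8% lower). Of 26 tested, 2 (7.69%) were called higher and 1 (3.85%) lower, and the median log2 fold change was -0.16. CDKN1A, which encodes the CDK inhibitor p21, had 4125 and 4707 normalized reads in MDA231-BR libraries A and B, against 1239 and 1483 in MDA231-P libraries A and B (log2 fold change 1.70 ± 0.228 SE, adjusted p = 0.00338). CCND2, a D-type cyclin, had 321 and 447 normalized reads in MDA231-BR, against 64.8 and 67.9 in MDA231-P (log2 fold change 2.50 ± 0.318 SE, adjusted p = 0.00284). RBL2, which encodes the repressor p130, had 767 and 834 normalized reads in MDA231-BR, against 1469 and 1535 in MDA231-P (log2 fold change -0.91 ± 0.227 SE, adjusted p = 0.0349). In each of these 3 the lines were apart. Of 10 tested parts of the ubiquitin ligases that act on licensing factors or cell cycle inhibitors, 1 (10%) was lower and 1 (10%) higher, with a median of -0.18. SKP2, the F-box protein that targets p27 and CDT1, had 757 and 695 normalized reads in MDA231-BR libraries A and B, against 3105 and 2632 in MDA231-P libraries A and B (log2 fold change -1.98 ± 0.229 SE, adjusted p = 0.00196). CUL4B, a scaffold of the ligase that destroys CDT1 in S phase, had 8669 and 9611 normalized reads in MDA231-BR, against 4971 and 4735 in MDA231-P (log2 fold change 0.91 ± 0.213 SE, adjusted p = 0.0279). CDKN1A, CCND2 and SKP2 were called in all 4 fits that left out a library, and RBL2, CUL4B, DBF4, DONSON, DNA2, RNASEH2B, SHMT1, ATRX and DAXX were not called without MDA231-P library A or without library B.

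Checkpoint and mitotic genes gave no calls with limma-trend. Over all genes, 8.92% were called lower with DESeq2, and 14.7% were lower at an unadjusted p below 0.05 in limma-trend. Of 10 tested checkpoint genes, 0 were called with limma-trend or edgeR and 1 lower with DESeq2, 2 were lower at an unadjusted p below 0.05, and the median log2 fold change was -0.06. CHEK1, the kinase that restrains origin firing and the most abundant of them, had 3207 and 3373 normalized reads in MDA231-BR, against 4078 and 3707 in MDA231-P. Of 20 tested genes of G2 and mitosis, 0 were called with limma-trend or edgeR and 1 lower with DESeq2, 2 were lower at an unadjusted p below 0.05, and the median was -0.18. MKI67, the proliferation marker, had 13181 and 26769 normalized reads in MDA231-BR, against 27325 and 14608 in MDA231-P, differing more within each line than between the lines. No test set the replication genes against the mitotic genes.

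The libraries of a line differed in these genes too. Between the MDA231-BR libraries, B was below A for 36 of the 47 members, and between the MDA231-P libraries, B was below A for 34. The shares of all genes with B below A were not computed. In MDA231-BR the median absolute log2 difference between libraries was 0.286 for the members, against 0.377 for all genes. In MDA231-P it was 0.246, against 0.260. Across the 47 members, the log2 difference of B from A followed exon length, with Spearman's rho of 0.58 in MDA231-BR and -0.75 in MDA231-P. The points share the same 4 libraries, and the same rho over all genes was not computed. Of the called genes, GINS2, GINS1, RFC2 and PRIM1 were lowest in MDA231-BR library B and highest in MDA231-P library B. The same held for RPA3, DUT, PCNA, RFC4, POLD2, POLE2 and RPA2, which were not called. The fold change between the lines had a rho of 0.24 with exon length. After each library was corrected for transcript length and GC content, an alternative chosen after seeing the data, 11 members were called lower and 0 higher, against 9.11% and 12.2% of all genes. They included the 8, with MCM4, SLBP and UHRF1 added.

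Chromosome and overlap values stand beside the calls. MCM7 and RFC2 lie on chromosome 7, whose tested genes had a median log2 fold change of -0.30, and CHAF1B lies on chromosome 21, with a median of -0.38. Less that median, the log2 fold changes were -0.56 for MCM7, -0.91 for RFC2 and -0.98 for CHAF1B. Among the genes of neighbouring pathways, DBF4 on chromosome 7 came to -0.91 and DONSON on chromosome 21 to -0.56. ATRX and CUL4B lie on chromosome X, with a median of 0.40, and came to 0.68 and 0.51. For GINS1, POLA1, PRIM1 and TYMS the chromosome median was above 0, and for GINS2 it was -0.14. The part of chromosome copy number was not tested. With no strand setting given, TYMS reads cannot be told apart from those of ENOSF1 over 967 shared exon bases on the opposite strand. ENOSF1 had 496 and 961 normalized reads in MDA231-BR, against 769 and 696 in MDA231-P. PRIM1 shares 123 exon bases with HSD17B6, and 362 on the same strand with AC117378.1, which has no row. GINS2 shares 7 exon bases with GSE1. MCM7 shares 277 with AP4M1, which had 294 and 245 normalized reads in MDA231-BR, against 404 and 461 in MDA231-P. In all, 18 members share exon bases with another annotated gene, 8 of them with a gene of the table. Same-strand genes without a row share 2012 exon bases with POLA2, 1077 with RRM2 and 426 with POLD1. Pseudogenes are named after 9 members, among them PCNA, TYMS, RRM2 and DUT. The counts of all these members are uncertain to that extent.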

How the data were processed

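RNA from 2 libraries of each line was sequenced, and the deposited table holds one signal value per gene and library. Per the submitters' processing notes, the authors used HISAT2, featureCounts and DESeq2 with build GRCh37; neither versions nor a strand setting are given. No source states how the deposited signal values were scaled by the authors; in each library all of them (100%) were whole multiples of the value of 1 read, within 0.01 reads, as counts divided by a size factor would be, and whole reads were recovered from them. The 67 rows without a gene name, 0.031% to 0.0369% of reads, were left out. Columns name the line only, so no library was tied to a single sample.

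The comparison was limma-trend (limma 3.58.1, R 4.3.3) on log2(value + 1), so fold changes of low genes are understated. It covered 14424 genes with at least 10 reads in enough libraries and 15 in total, leaving out 855, with Benjamini-Hochberg adjustment over all of them and a threshold of 0.05. On recovered reads, edgeR 4.0.16 called 1293 genes higher and 935 lower; DESeq2 1.42.0 was run likewise. Other pseudocounts, scalings and filters, leaving out each library, and a length and GC correction were tried. The fits were tested on simulated data. Called members and the most abundant member of each step were to be named with every library's value, and of each list up to 2 called genes that rose most and 2 that fell most, or the most abundant where none was called; other members given by library were chosen after their values were seen. The members and lists were chosen with earlier results of these data known. Exon lengths and overlaps came from GENCODE annotation. Some listed genes are not reported here. Depth was 25835225 to 30771290 reads per library.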

Additional observations from a re-analysis of the deposited data

How the results depend on the processing

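The test gave 8 members lower, and 7 to 9 under both other pseudocounts, edgeR, limma-voom, TMM or library total scaling and a minimum count of 50; it gave 6 without a filter (4.81% to 6.87% of all genes in these settings), where MCM7 (adjusted p = 0.0501) and POLA1 were not called, and 11 with DESeq2 and with the length and GC correction. Over all genes, 1287 were lower with DESeq2 and 1310 with that correction, which was chosen after seeing the data, against 837. With each library left out in turn, members lower ran 0 to 18, members higher 0 to 1, all genes lower 74 to 2402 and all genes higher 310 to 2855. These fits leave a line with a lone library, assumed to vary like the other line. Median log2 fold changes then ran -0.19 to -0.0024 in origin licensing (0.05 with all libraries, -0.068 with the length and GC correction), -0.64 to -0.32 in the helicase, -0.67 to -0.18 in the clamp, -0.68 to -0.39 in polymerases, -0.40 to -0.081 in single-strand binding and -0.97 to -0.33 in nucleotide supply. Single genes that changed sign were all uncalled: ORC1 ran -0.0024 to 0.40, CDC6 -0.059 to 0.17 (-0.068 with the length and GC correction), GMNN -0.24 to 0.33, MCM5 -0.33 to 0.040, MCM10 -0.36 to 0.091, GINS3 -0.29 to 0.012, RFC5 -0.019 to 0.18, POLE -0.55 to 0.52 (0.0040 with edgeR and 0.013 with DESeq2), RPA1 -0.23 to 0.059 and LIG1 -0.41 to 0.057. The cause was not tested. Of 658 pairs of a member and a setting, 601 kept direction and call, 21 lost the call, 19 gained it and 17 changed sign. No paired analysis was possible because the columns carry no replicate numbers.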
